A study of Mus musculus with 18 samples.

Results

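The circadian clock genes followed here are 10 genes of the mammalian clock (Clock, Arntl, Per1, Per2, Per3, Cry1, Nr1d1, Dbp, Nfil3 and Bhlhe40). They were taken by gene symbol, and all 10 were found among the 24394 genes shared by the 3 deposited RNA-seq count tables. The tables hold 18 bulk libraries of mouse esophageal organoids, which are cultures grown from dissociated tissue in a gel. Every library is declared Trp53-/-, Myc overexpressing and sgCdkn2a, that is, lacking Trp53 and carrying a guide RNA against Cdkn2a. The groups were premalignant sgTgfbr2 (n = 4, from sets that the titles number 1 and 2, called lines here, with 2 libraries each), set against premalignant sgScr (n = 3), and tumor sgTgfbr2 (n = 2), set against tumor sgScr (n = 3). The last pair was tumor sgTgfbr2 organoids given 2 µM pinaverium bromide (PB, n = 3), set against DMSO vehicle (n = 3). PB blocks calcium channels. The guide sgTgfbr2 targets the type II receptor of TGF-beta and sgScr is the control guide. Organoids were given PB after 72 h of culture, and the length of the treatment and the time of day of harvest are not stated in the labels used here. The listed culture medium for all groups includes 2 µM A83-01, which inhibits the type I receptor kinase for TGF-beta. No label says which libraries came from separate animals or cultures, so each p-value measures only the spread between these libraries.

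The core of the clock is a transcriptional feedback loop. CLOCK and ARNTL (also called BMAL1) form a heterodimer that binds E-box elements and activates the Per and Cry genes, whose proteins then inhibit that heterodimer. The same heterodimer drives Nr1d1 (REV-ERB alpha), which represses Arntl through ROR elements, and Dbp, which activates genes through D-box elements, where NFIL3 acts as the repressor. Bhlhe40 (DEC1) encodes an E-box repressor. In epithelia such as the esophagus, as in most tissues, many of these transcripts cycle over the day.

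Promoter sequence of Per1, Cry1, Per3, Nfil3 and Arntl, which carry clock elements, is shown so that the elements can be set beside the transcript levels. The Nr1d1 promoter, which held only the E-box variant, is described below and not shown. The table of RefSeq promoters (GRCm38.p6, the build also called mm10) held 12 promoters for 8 of the 10 members, and none was found there for Per2 or Bhlhe40. Both strands of the 250 bases before to 50 after each start site were searched for the E-box CACGTG, its variant CACGTT, the D-box TTANGTAA, the ROR element TAGGTCA and the cAMP response element TGACGTCA. The first 4 lines give the 250 bases before the start site and the last gives a 27-base stretch after it, each 5′ to 3′ on the gene's strand, with matches in capitals.
Per1, chr11:69098699-69098948, plus strand: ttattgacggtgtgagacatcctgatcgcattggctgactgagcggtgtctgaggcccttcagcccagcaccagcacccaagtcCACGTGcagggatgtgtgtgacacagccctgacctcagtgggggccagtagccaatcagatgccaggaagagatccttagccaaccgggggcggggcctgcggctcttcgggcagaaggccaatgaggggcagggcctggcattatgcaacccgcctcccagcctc
Cry1, chr10:85185055-85185304, minus strand: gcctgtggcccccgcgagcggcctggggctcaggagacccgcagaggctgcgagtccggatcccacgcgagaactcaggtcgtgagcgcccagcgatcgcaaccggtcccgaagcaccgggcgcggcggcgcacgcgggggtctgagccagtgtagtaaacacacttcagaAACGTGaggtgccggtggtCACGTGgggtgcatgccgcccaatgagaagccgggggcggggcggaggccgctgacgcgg
Per3, chr4:151044666-151044915, minus strand: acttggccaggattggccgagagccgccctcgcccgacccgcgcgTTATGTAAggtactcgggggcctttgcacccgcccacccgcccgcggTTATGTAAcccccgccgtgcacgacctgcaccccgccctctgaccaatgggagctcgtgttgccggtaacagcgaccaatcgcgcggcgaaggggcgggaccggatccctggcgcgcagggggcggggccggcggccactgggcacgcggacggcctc
Nfil3, chr13:52981040-52981289, minus strand: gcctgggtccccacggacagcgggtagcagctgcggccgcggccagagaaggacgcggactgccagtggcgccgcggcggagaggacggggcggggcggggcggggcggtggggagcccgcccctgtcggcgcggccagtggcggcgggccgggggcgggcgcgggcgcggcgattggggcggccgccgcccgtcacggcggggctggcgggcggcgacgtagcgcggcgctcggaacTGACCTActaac
Arntl, chr7:113207531-113207557, plus strand: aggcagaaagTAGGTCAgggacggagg
Per1 had 1 E-box, which began 166 bases before the start site (position -166). Cry1 had an E-box at -60 and the variant, read as AACGTG on this strand, at -79. Per3 had 2 D-boxes, at -205 and -158. Nfil3 had a ROR element at -12, read as TGACCTA on this strand, and the second Arntl promoter had one at 31 bases after the start. The Nr1d1 promoter had 1 match, the E-box variant at -28, and the Clock and Dbp promoters had none. Among all 32851 promoters of the table, 7.15% held the E-box, 4.68% its variant, 2.32% the D-box, 2.61% the ROR element and 1.79% the cAMP response element. A match describes these letters and is no evidence of binding, and elements outside these windows were not searched.

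Levels are given as CPM, a gene's count scaled to a common library total. The libraries held 14993749 to 21784140 counts, at which 3 counts stand for at most 0.200 CPM, and the lowest value of any member was 2.87 CPM (Per2 in a tumor sgScr library). Fold changes come from edgeR's quasi-likelihood test with TMM scaling, fitted on all genes of a table, and a gene was called at a Benjamini-Hochberg adjusted p under 0.05. Tgfbr2 transcripts were lower with the guide but present, at 86.2 to 131 CPM in premalignant sgTgfbr2, against 179 to 219 CPM in premalignant sgScr, and at 67.5 and 71.2 CPM in tumor sgTgfbr2, against 112 to 129 CPM in tumor sgScr. The 5 tumor guide libraries stand apart from the other 13. The summed level of 8 skeletal muscle markers was 217 to 259 CPM in tumor sgTgfbr2, 17918 to 18396 CPM in tumor sgScr, and at most 10.6 CPM elsewhere. In tumor sgTgfbr2 Des, which smooth muscle also expresses, made up 213 to 258 CPM of that sum, Tnnc2 and Myh8 were at 0 and each other marker was at most 1.12 CPM. For 6 fibroblast markers it was 2280 to 2340 CPM, 2842 to 3032 CPM and at most 4.51 CPM in the same order. For 8 gastric and columnar markers it was 28124 to 31345 CPM, 1.95 to 2.48 CPM, with 5 of the 8 at 0, and 454 to 1223 CPM. In premalignant, vehicle and PB libraries Krt8 and Krt18 made up nearly all of this last sum, and each gastric marker was at most 0.254 CPM. The 7 immune and 5 endothelial markers summed to 754 to 785 and 81.3 to 87.2 CPM in tumor sgTgfbr2, 922 to 939 and 95.3 to 107 CPM in tumor sgScr, and at most 60.8 and 1.01 CPM elsewhere. Keratinocyte markers were detected in every group, with all 7 above 0. They summed to 21650 to 22426 CPM in tumor sgTgfbr2, 118923 to 127692 CPM in tumor sgScr and 5349 to 10044 CPM elsewhere. In tumor sgScr Krt4 (61317 to 66893 CPM) and Krt13 (54608 to 57360 CPM) made up nearly all of that sum. Krt5 (1251 to 1453 CPM) and Sox2 (31.1 to 41.0 CPM) were lower there than in any other group. Krt15 (531 to 607 CPM) was higher, and Krt14 and Trp63 overlapped other groups. In such bulk libraries fewer cells of a type and less RNA per cell cannot be told apart.

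Pinaverium bromide moved all 10 clock genes. Nr1d1, the ROR-element repressor, and Nfil3, the D-box repressor, rose most, by 6.35-fold and 6.39-fold. Arntl, Per1, Dbp, Cry1 and Clock rose less, and Per2, Bhlhe40 and Per3 fell. So 7 members were called higher and 3 lower, where 36.5% of the 12801 genes tested were called higher and 36.8% lower. The median log2 fold change was 0.92 for the members and -0.01 for all genes, and the median absolute log2 fold change was 0.99 for the members and 0.34 for all genes. PB and vehicle libraries overlapped for none of the 10 members. The share of all genes without overlap was not counted, so this count has no background to be set beside.

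Among the activators, Arntl stood at 79.6, 78.7 and 83.1 CPM in PB libraries, against 30.4, 31.6 and 28.2 CPM in vehicle libraries. Every PB library lay above every vehicle library, and the log2 fold change was 1.56 ± 0.05 (SE, adjusted p = 1.81e-38). Clock, its partner, moved far less. Its level was 164, 157 and 157 CPM with PB, against 144, 154 and 143 CPM with vehicle, a log2 fold change of 0.26 ± 0.03 (adjusted p = 2.81e-11) between groups that sit close together without overlapping.

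The period genes did not move one way under PB. Per1, a repressor whose transcription also responds to acute signals, was at 328, 331 and 325 CPM with PB, against 136, 135 and 131 CPM with vehicle, and its log2 fold change was 1.43 ± 0.03 (adjusted p = 8.82e-52). Its paralog Per2 went the other way, with 8.34, 7.13 and 10.04 CPM in PB libraries, against 19.3, 17.8 and 19.7 CPM in vehicle libraries. All PB values of Per2 lay below all vehicle values, and it fell by 1.01 ± 0.10 on the log2 scale (adjusted p = 5.60e-14). Per3 also fell, to 41.3, 38.7 and 38.0 CPM with PB, against 61.1, 62.8 and 60.2 CPM with vehicle (log2 fold change -0.50 ± 0.05, adjusted p = 6.66e-14). Cry1, the cryptochrome among the members, rose to 26.1, 24.4 and 23.9 CPM with PB, against 15.6, 16.1 and 13.4 CPM with vehicle (log2 fold change 0.86 ± 0.08, adjusted p = 4.98e-15).

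In the ROR-element arm, Nr1d1 had 643, 648 and 665 CPM in PB libraries, against 115, 113 and 112 CPM in vehicle libraries. No other group came near the PB level, since the highest library outside PB held 149 CPM. The log2 fold change was 2.67 ± 0.03 (adjusted p = 1.25e-68). The target genes Arntl, Nfil3 and Cry1, which NR1D1 is known to repress, were also higher with PB. Nr1d1 shares 263 exon bases (8.55% of its exon length) with Thra, the thyroid hormone receptor alpha gene on the opposite strand, and the strand setting of the authors' counting is not given in the sources used here. Thra went the other way under PB, with a log2 fold change of -0.64 ± 0.06 (adjusted p = 2.19e-15) at 27.7 to 28.4 CPM with PB, against 46.2 to 51.7 CPM with vehicle.

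In the D-box arm both the repressor and an activator rose. Nfil3 had 94.4, 97.4 and 98.3 CPM with PB, against 16.4, 16.3 and 17.2 CPM with vehicle (log2 fold change 2.68 ± 0.05, adjusted p = 1.12e-50). Dbp had 83.7, 81.7 and 78.9 CPM with PB, against 45.3, 46.5 and 45.0 CPM with vehicle, and its log2 fold change was 0.98 ± 0.05 (adjusted p = 8.97e-30). Both sets of PB libraries lay wholly above their vehicle libraries. Dbp shares 539 exon bases (18.01% of its exon length) with Sphk2, a sphingosine kinase gene on the opposite strand, whose level was 51.7, 55.1 and 53.2 CPM with PB and 53.8, 50.3 and 54.7 CPM with vehicle. The E-box repressor Bhlhe40 had 117, 114 and 121 CPM in PB libraries, against 237, 241 and 242 CPM in vehicle libraries, so it fell, by 0.89 ± 0.03 on the log2 scale (adjusted p = 4.71e-38).

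**Figure D1:**
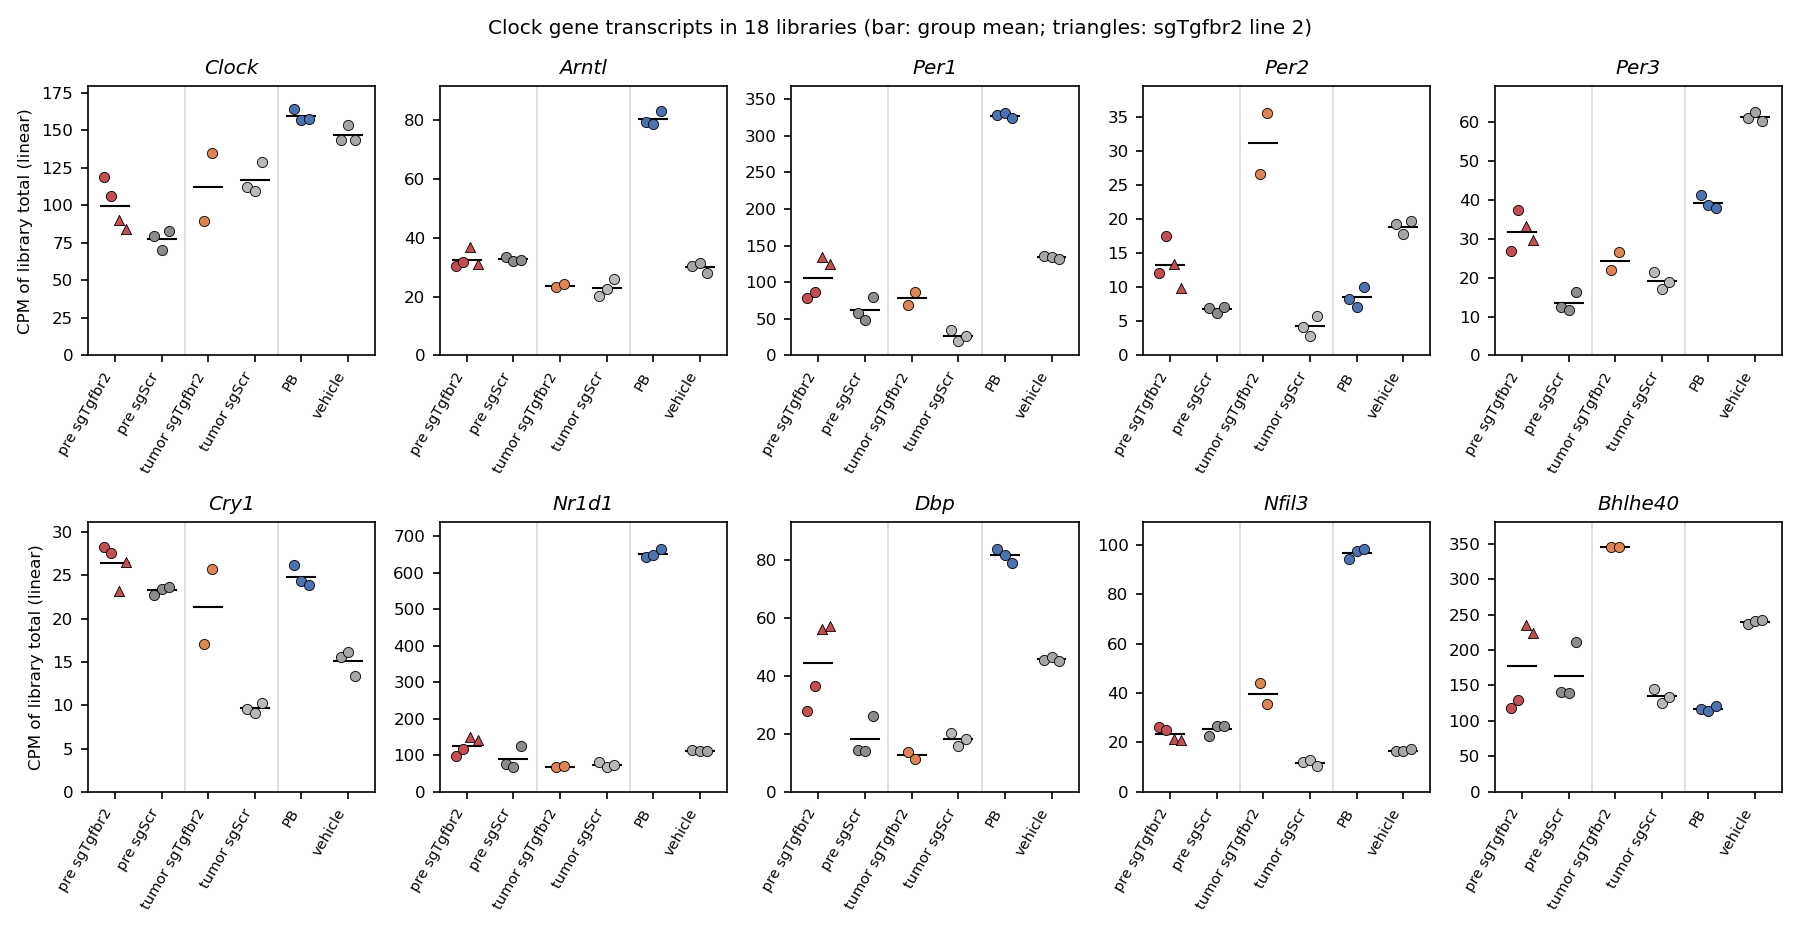
Level of each clock gene in CPM of the library total (linear axis from 0) in the 18 libraries, by group, with bars at group means and triangles for sgTgfbr2 line 2. PB libraries stand above all others for Nr1d1, Nfil3, Per1, Arntl and Dbp, tumor sgTgfbr2 libraries stand highest for Per2 and Bhlhe40, and the 5 tumor guide libraries differ from the rest in their cell type markers.

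The plot of levels by library shows how tightly the PB and vehicle libraries group compared with the guide libraries. Of the 24 other clock genes, 11 were called higher and 10 lower with PB, with a median log2 fold change of 0.14. The count in each direction is close to the share of all genes tested, 36.5% higher and 36.8% lower. Of the repressors, Ciart (log2 fold change 1.73 ± 0.08) and Bhlhe41 (1.70 ± 0.04), a paralog of Bhlhe40, rose and Timeless (-0.93 ± 0.05) fell. In the ROR-element arm Nr1d2 (0.46 ± 0.04), the paralog of Nr1d1, rose. The D-box activators Hlf (0.26 ± 0.08) and Tef (-0.11 ± 0.04) moved slightly and in opposite directions. The ubiquitin ligase gene Fbxw11 (0.46 ± 0.03) rose, as did the kinase gene Gsk3b (0.42 ± 0.03). Of the output genes, Klf10 (-1.03 ± 0.04) and Wee1 (-0.53 ± 0.06) fell and Nampt (0.22 ± 0.03) rose. Npas2, a paralog of Clock, fell, with a log2 fold change of -0.90 ± 0.14. Tef had the largest adjusted p among these named genes (0.0112). Of genes that respond to glucocorticoids, which also induce Per1, 2 of the 4 tested were called higher and 2 lower. Of 6 genes that respond to cAMP, 2 were called higher and 3 lower, and Fos, an immediate-early gene singled out after its values were seen, had 227 to 235 CPM with PB, against 768 to 787 CPM with vehicle (log2 fold change -1.61 ± 0.02, adjusted p = 3.86e-58).

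In premalignant organoids carrying the Tgfbr2 guide, the 3 period genes and Dbp were higher, and no member was lower. With 4 members called higher and 0 lower, the share stood beside 22.7% of the 13098 genes tested that were called higher and 23.5% called lower. The median log2 fold change was 0.36 for the members and -0.0037 for all genes. The median absolute log2 fold change was 0.36 for the members and 0.38 for all genes. The largest changes were 1.22 for Dbp and 1.16 for Per3 on the log2 scale.

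The activators were not called in premalignant organoids. Clock had 119 and 106 CPM in line 1 and 90.1 and 83.9 CPM in line 2 of sgTgfbr2, against 79.3, 70.0 and 82.9 CPM in sgScr, with a log2 fold change of 0.30 ± 0.12 (adjusted p = 0.0721). Its groups did not overlap, although line 2 came close to sgScr. Arntl stood at 30.3 to 36.7 CPM in sgTgfbr2, around the 32.0 to 33.5 CPM of sgScr, with a log2 fold change of -0.08 ± 0.10 (adjusted p = 0.521).

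Of the repressors, Per3 had the smallest adjusted p. It had 26.8 and 37.3 CPM in line 1 and 33.3 and 29.8 CPM in line 2 of sgTgfbr2, against 12.5, 11.8 and 16.4 CPM in sgScr, and its log2 fold change was 1.16 ± 0.15 (adjusted p = 5.02e-04). Every sgTgfbr2 library lay above every sgScr library. Per2 had 12.1 and 17.6 CPM in line 1 and 13.4 and 9.87 CPM in line 2, against 6.97, 6.29 and 7.17 CPM in sgScr, again with no overlap (log2 fold change 0.89 ± 0.19, adjusted p = 0.00512). Per1 had 78.5 and 86.6 CPM in line 1 and 134 and 124 CPM in line 2, against 57.9, 48.6 and 80.1 CPM in sgScr. Here the lowest sgTgfbr2 library lay below the highest sgScr library, and the log2 fold change was 0.71 ± 0.22 (adjusted p = 0.0248). That call was lost without sgScr replicate 1 (0.65, adjusted p = 0.0934), without sgScr replicate 2 (0.57, adjusted p = 0.113) and without line 2 replicate 1 (0.58, adjusted p = 0.0508). Cry1 was at 23.1 to 28.3 CPM in sgTgfbr2, against 22.7 to 23.6 CPM in sgScr, and was not called (log2 fold change 0.11, adjusted p = 0.411).

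In the output arms, Dbp had 27.7 and 36.6 CPM in line 1 and 56.0 and 57.2 CPM in line 2, against 14.5, 14.1 and 26.2 CPM in sgScr. The groups did not overlap, with line 2 well above line 1, and the log2 fold change was 1.22 ± 0.30 (adjusted p = 0.00877). Without sgScr replicate 2 it was 1.07 (adjusted p = 0.0509). Sphk2, which overlaps Dbp, was lower in sgTgfbr2 (log2 fold change -0.48, adjusted p = 0.0117). Nr1d1 had 97.7 and 117 CPM in line 1 and 149 and 143 CPM in line 2, against 75.8, 69.3 and 126 CPM in sgScr, so the groups overlapped (log2 fold change 0.43 ± 0.21, adjusted p = 0.122). Thra, which overlaps Nr1d1, was called higher in sgTgfbr2 (log2 fold change 0.77, adjusted p = 0.00680). The part of the shared exon bases in the Nr1d1 values was not tested. Without sgScr replicate 3, which held more Per1, Per3, Nr1d1, Dbp and Bhlhe40 than the other 2 sgScr libraries, Nr1d1 was called at a log2 fold change of 0.71 (adjusted p = 0.0139). Nfil3 stood at 21.2 to 26.3 CPM in sgTgfbr2, against 22.7 to 26.6 CPM in sgScr (log2 fold change -0.19, adjusted p = 0.231).

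The lines of premalignant sgTgfbr2 organoids differed in 4 of the 10 members. Line 2 was higher than line 1 for 3 members and lower for 1, beside 13.2% and 13.1% of the 13438 genes tested. Bhlhe40 had 236 and 225 CPM in line 2, against 119 and 130 CPM in line 1, with a log2 fold change of 0.90 (adjusted p = 6.00e-04). Dbp (0.82, adjusted p = 0.0111) and Per1 (0.66, adjusted p = 0.00641) were also higher in line 2, and Clock was lower (-0.36, adjusted p = 0.0152). The number of members called fell to 1 without line 1 replicate 1 or without line 2 replicate 1, and to 2 without line 2 replicate 2, and Bhlhe40 was called in each of these. Against sgScr, line 2 had 6 members called higher and 1 lower, beside 27.7% and 28.5% of the 13290 genes tested, and line 1 had 4 called higher and 1 lower, beside 25.3% and 24.0% of the 13154 genes tested. Nfil3 was the member called lower in line 2 (log2 fold change -0.33, adjusted p = 0.0359). Bhlhe40 was higher than sgScr in line 2 (log2 fold change 0.43, adjusted p = 0.0218) and lower in line 1 (-0.43, adjusted p = 0.0334), where both lines share the same sgScr libraries at 140.1, 139 and 211 CPM. Per2, Per3 and Dbp were called higher in either line, at 0.71, 1.15 and 1.56 in line 2 and at 1.08, 1.20 and 0.78 in line 1. Tgfbr2 itself was lower in line 2 than in line 1 (log2 fold change -0.43, adjusted p = 0.00915).

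**Figure D2:**
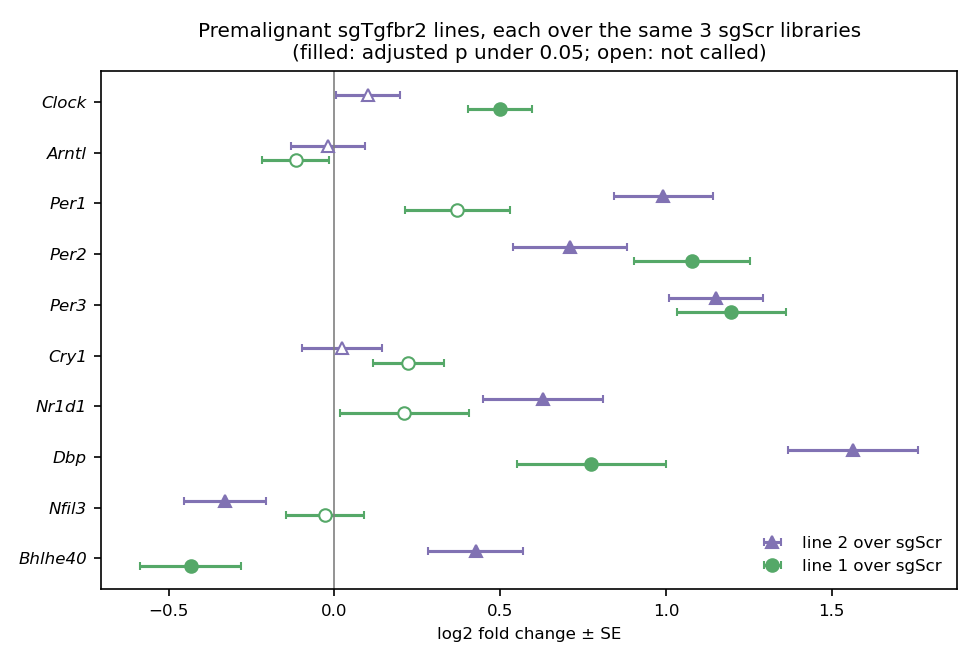
Log2 fold change of each clock gene over the same 3 sgScr libraries, with its standard error, for sgTgfbr2 line 2 (triangles) and line 1 (circles), filled where the adjusted p was under 0.05. Per2, Per3 and Dbp are filled and right of 0 in both lines, and Bhlhe40 lies on opposite sides of 0, at 0.43 in line 2 and -0.43 in line 1.

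The plot by line also shows Per1, Nr1d1 and, left of 0, Nfil3 filled in line 2 and open in line 1, and Clock the other way round. Of the 24 other clock genes, 9 were called higher and 3 lower in premalignant sgTgfbr2, with a median log2 fold change of 0.12. Bhlhe41 (1.07 ± 0.19), Nr1d2 (0.75 ± 0.20), Hlf (0.50 ± 0.13) and Klf10 (0.91 ± 0.17) rose, and the repressor genes Ciart (-0.70 ± 0.13) and Timeless (-0.26 ± 0.10) fell. The kinase gene Csnk1e (0.41 ± 0.09), whose product phosphorylates period proteins, and the ubiquitin ligase gene Fbxw11 (0.29 ± 0.09) rose. Between the lines, 7 of the 24 were higher in line 2 and 0 lower, namely Npas2 (1.24 ± 0.30), Cry2 (1.05 ± 0.14), Nr1d2 (0.73 ± 0.10), Rora (1.12 ± 0.21), Usp2 (1.10 ± 0.29), Wee1 (0.48 ± 0.11) and Klf10 (0.51 ± 0.13). Among glucocorticoid-responsive genes 3 of the 4 tested were called higher and 0 lower, and among cAMP-responsive genes 4 of 6 were called higher and 1 lower. Beside these counts, 22.7% of all genes tested were called higher in premalignant sgTgfbr2 and 23.5% lower. Between the lines, 13.2% of all genes tested were called higher in line 2 and 13.1% lower.

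In tumor organoids the clock genes split. Per2, Nfil3, Per1, Bhlhe40 and Cry1 were higher with the Tgfbr2 guide and Dbp, Nr1d1 and Clock lower. That made 5 members higher and 3 lower, beside 29.8% of the 15091 genes tested called higher and 30.5% called lower. The median log2 fold change was 0.46 for the members and -0.02 for all genes, and the median absolute log2 fold change was 0.83 for the members and 0.73 for all genes. The muscle, fibroblast, immune, endothelial, gastric and keratinocyte marker sums given above move with this comparison, and their part in the results was not tested. Scaling by library totals alone, in place of TMM, moved the median of all genes to 0.26 on the log2 scale, and 64.3% of the calls were then higher, against 49.4% with TMM.

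Per2 changed most. It had 26.7 and 35.6 CPM in tumor sgTgfbr2, against 4.22, 2.87 and 5.76 CPM in tumor sgScr, with no overlap and a log2 fold change of 2.59 ± 0.24 (adjusted p = 6.03e-09). Per1 had 68.6 and 87.2 CPM in sgTgfbr2, against 35.2, 19.97 and 26.1 CPM in sgScr, also without overlap (log2 fold change 1.24 ± 0.18, adjusted p = 4.55e-06). Per3 was at 22.0 and 26.7 CPM in sgTgfbr2, against 21.4, 17.0 and 19.0 CPM in sgScr, and was not called on the TMM scale (log2 fold change 0.06, adjusted p = 0.791). Cry1 had 17.1 and 25.7 CPM in sgTgfbr2, against 9.56, 9.08 and 10.3 CPM in sgScr. Its sgTgfbr2 libraries lay above all sgScr libraries but far from each other, with a log2 fold change of 0.86 ± 0.21 (adjusted p = 0.00149) that was 0.57 (adjusted p = 0.0558) without sgTgfbr2 replicate 2.

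Nfil3 had 44.0 and 35.4 CPM in tumor sgTgfbr2, against 12.2, 12.9 and 10.5 CPM in tumor sgScr (log2 fold change 1.45 ± 0.19, adjusted p = 6.37e-07). Dbp moved oppositely, with 13.7 and 11.5 CPM in sgTgfbr2, against 20.3, 15.9 and 18.2 CPM in sgScr (-0.81 ± 0.21, adjusted p = 0.00185). Neither pair of groups overlapped. Sphk2, which overlaps Dbp, was not called (log2 fold change 0.15, adjusted p = 0.474). Bhlhe40 had 346 and 345 CPM in sgTgfbr2, the highest level of this gene in any library, against 145, 125 and 133 CPM in sgScr (1.08 ± 0.12, adjusted p = 1.31e-07).

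The activators and Nr1d1 showed small differences in tumor organoids. Arntl stood at 23.3 and 24.2 CPM in sgTgfbr2, against 20.3, 22.7 and 26.1 CPM in sgScr, and was not called (log2 fold change -0.24, adjusted p = 0.248). Clock had 89.2 and 135 CPM in sgTgfbr2, one on each side of the 112, 110 and 129 CPM of sgScr. Its log2 fold change of -0.36 ± 0.15 (adjusted p = 0.0460) was -0.06 (adjusted p = 0.739) with library totals alone, and the call was lost when any library but sgTgfbr2 replicate 2 was left out. Thra, which overlaps Nr1d1, was called lower in tumor sgTgfbr2 (log2 fold change -0.90, adjusted p = 0.00152), and the part of the shared exon bases was not tested. Nr1d1 had 68.2 and 69.7 CPM in sgTgfbr2, within the 82.2, 67.0 and 73.6 CPM of sgScr (log2 fold change -0.39 ± 0.14, adjusted p = 0.0189). It was not called with library totals alone (-0.11, adjusted p = 0.530), without sgTgfbr2 replicate 1 (-0.41, adjusted p = 0.0531) or without sgTgfbr2 replicate 2 (-0.38, adjusted p = 0.0716).

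**Figure D3:**
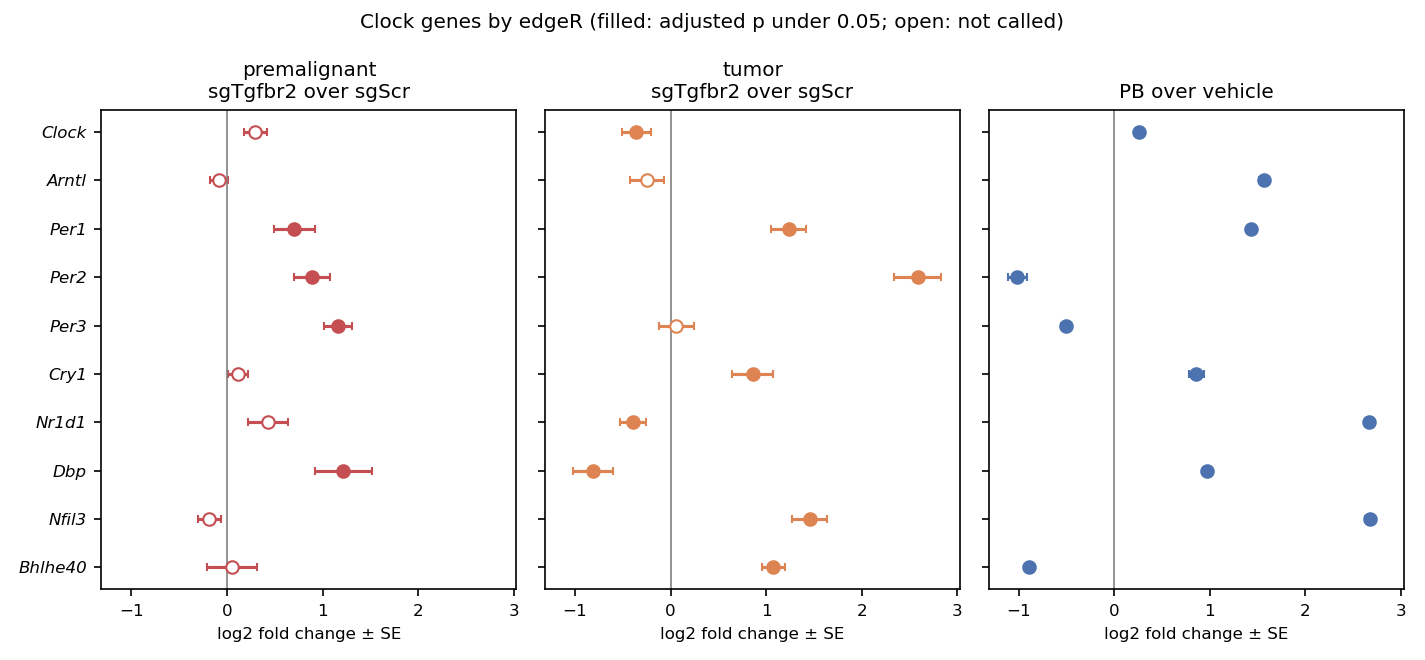
Log2 fold change of each clock gene with its standard error, from edgeR, in premalignant sgTgfbr2 over sgScr, tumor sgTgfbr2 over sgScr and PB over vehicle, filled where the adjusted p was under 0.05. All 10 points are filled under PB, where Nr1d1 (2.67) and Nfil3 (2.68) lie farthest right, and Per2 (2.59) lies farthest right in tumor organoids, whose libraries also differ in cell type markers.

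The plot of fold changes sets the comparisons side by side. Of the 22 other clock genes tested in tumor organoids, 11 were called higher and 7 lower. The repressor gene Bhlhe41 (1.79 ± 0.18) rose, and Cry2 (-1.14 ± 0.17) and Cipc (-0.98 ± 0.15) fell. In the ROR-element arm Rora (-2.99 ± 0.18) fell and Nr1d2 (0.68 ± 0.14) rose. The D-box activators Hlf (1.22 ± 0.21) and Tef (0.57 ± 0.13) rose, unlike Dbp. Usp2 (-2.33 ± 0.18), a deubiquitinase gene, fell, and the kinase genes Gsk3b (1.00 ± 0.14) and Csnk1d (0.84 ± 0.13) rose. Of the output genes Wee1 (1.05 ± 0.19) and Tspan4 (0.90 ± 0.18) rose and Nampt (-0.82 ± 0.15) fell. Rora and Usp2 were far higher in tumor sgScr than elsewhere, at 59.0 to 75.4 CPM and 48.8 to 61.3 CPM, and the same libraries carried the muscle marker sum given above. Among cAMP-responsive genes 5 of 6 were called higher and 0 lower in tumor sgTgfbr2, and Fos had 182 and 194 CPM in sgTgfbr2, against 19.7, 20.3 and 21.02 CPM in sgScr. Among glucocorticoid-responsive genes 2 of 5 were called higher and 1 lower. Beside these counts, 29.8% of all genes tested were called higher in tumor sgTgfbr2 and 30.5% lower.

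The effect of the Tgfbr2 guide differed between the tumor and the premalignant stage for 8 of the 10 members. This difference of differences, tumor effect minus premalignant effect, was fitted on the 12 guide libraries. It was positive and called for 4 members and negative and called for 4, beside 25.0% and 24.5% of the 15671 genes tested. Scaling by library totals alone moved the median of all genes in this contrast to 0.20 on the log2 scale, and 61.9% of the calls were then positive, against 50.6% with TMM. Dbp showed the greatest gap (-2.04 ± 0.41, adjusted p = 7.07e-04), being lower in tumor sgTgfbr2 and higher in premalignant sgTgfbr2, each against its own sgScr. Per2 (1.69, adjusted p = 7.31e-04) was higher at both stages and more so in tumor organoids. Nfil3 (1.63, adjusted p = 1.62e-05), Bhlhe40 (1.01, adjusted p = 0.0213) and Cry1 (0.74, adjusted p = 0.00963) were positive, and Per3 (-1.11, adjusted p = 9.89e-04), Nr1d1 (-0.83, adjusted p = 0.0249) and Clock (-0.66, adjusted p = 0.0155) negative. Per1 was called higher at both stages, with a difference of 0.52 that was not called (adjusted p = 0.221), and Arntl was called at neither (-0.17, adjusted p = 0.475). Of the genes on the opposite strand, Thra, which overlaps Nr1d1, was negative (-1.68, adjusted p = 4.03e-04). Sphk2, which overlaps Dbp, was positive (0.62, adjusted p = 0.0280). The tumor markers given above move with this contrast too, and their part was not tested. Without tumor sgTgfbr2 replicate 1, or without replicate 2, 5 members were called. Nr1d1 lost its call without either of these libraries (adjusted p = 0.0683 and 0.0779), without premalignant sgScr replicate 1 or 2 (0.0672 for each) and without tumor sgScr replicate 1 (0.0594). Bhlhe40 lost its call without either tumor sgTgfbr2 library (0.0674 and 0.0514) and without premalignant sgScr replicate 3 (0.0677). Clock lost its call without tumor sgTgfbr2 replicate 1 (0.122) and Cry1 without tumor sgTgfbr2 replicate 2 (0.0985). Of the 24 other clock genes 9 were positive and 8 negative, with Rora (-3.50 ± 0.43) and Usp2 (-3.38 ± 0.42) among the negative.

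Across the study, the order of levels differed from gene to gene. Per1 spanned the widest range of group means, 12.1-fold between PB and tumor sgScr, and Clock the narrowest, 2.06-fold between PB and premalignant sgScr. The other group-mean ranges were 9.45-fold for Nr1d1, 8.14-fold for Nfil3, 7.27-fold for Per2, 6.48-fold for Dbp, 4.52-fold for Per3, 3.49-fold for Arntl, 2.94-fold for Bhlhe40 and 2.74-fold for Cry1. PB was the highest group for 6 members, tumor sgTgfbr2 for Per2 and Bhlhe40, vehicle for Per3 and premalignant sgTgfbr2 for Cry1. These levels come from 3 tables set side by side without a test, and the marker sums of the tumor guide libraries given above differ from those of the other groups. For Arntl, premalignant sgTgfbr2, premalignant sgScr and vehicle overlapped (means of 32.4, 32.7 and 30.0 CPM). For Nr1d1 the 5 groups below PB each overlapped their neighbour, from 127 CPM in premalignant sgTgfbr2 down to 69.0 CPM in tumor sgTgfbr2.

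Levels of different members are comparable only per length of transcript, so CPM were divided by the kilobases of exon in the GENCODE M21 annotation. Nr1d1 was the most abundant member with PB at 212 CPM per kb, followed by Per1 at 58.2 CPM per kb and Nfil3 at 47.7 CPM per kb. In vehicle Bhlhe40 led at 51.0 CPM per kb, with Nr1d1 at 36.7 CPM per kb and Nfil3 at 8.21 CPM per kb. Bhlhe40 also led in tumor sgTgfbr2 (73.4 CPM per kb), tumor sgScr (28.6 CPM per kb) and premalignant sgScr (34.7 CPM per kb), and Nr1d1 led in premalignant sgTgfbr2 (41.2 CPM per kb). Per2 was the least abundant in every group but tumor sgTgfbr2, where Per3 was.

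Scaling by library cancels in a ratio, here only nearly, since 0.5 was added to each CPM before logs. The mean log2 level of Per1, Per2, Per3, Nr1d1 and Dbp, which CLOCK and ARNTL activate, was therefore set against the log2 level of Arntl within each library. This score over the members is a description and has no test, and Cry1 is not part of it. It averaged 0.53 ± 0.17 (SD, n = 4) in premalignant sgTgfbr2 and -0.41 ± 0.32 (SD, n = 3) in premalignant sgScr. Tumor sgTgfbr2 averaged 0.54 ± 0.08 (SD, n = 2) and tumor sgScr -0.21 ± 0.31 (SD, n = 3), while PB averaged 0.17 ± 0.03 (SD, n = 3) and vehicle 1.00 ± 0.08 (SD, n = 3). The score was thus higher in sgTgfbr2 than in sgScr libraries of either stage and lower with PB, and the groups of each pair did not overlap. The 5 genes did not move together. In tumor organoids Per2 and Per1 were called higher and Dbp and Nr1d1 lower, and under PB Per1, Nr1d1 and Dbp rose and Per2 and Per3 fell, while Arntl rose more than the mean of the 5.

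**Figure D4:**
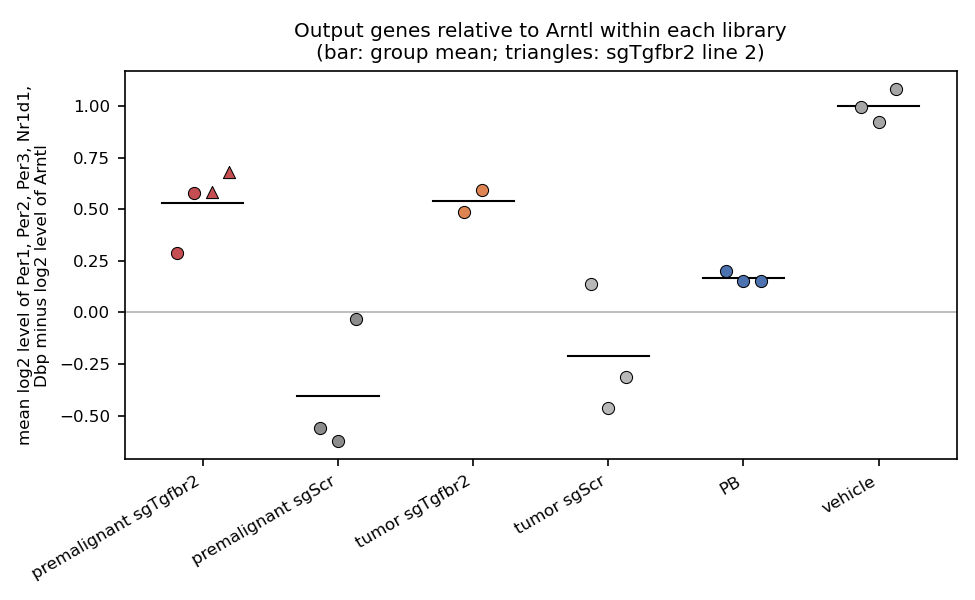
Mean log2 level of Per1, Per2, Per3, Nr1d1 and Dbp minus the log2 level of Arntl, from log2(CPM + 0.5), 1 point per library with bars at group means and triangles for sgTgfbr2 line 2. PB libraries lie around 0.17 and vehicle libraries, the highest, around 1.00, and sgTgfbr2 libraries lie above the sgScr libraries of their own stage.

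Profiles over the 18 libraries were compared by the root-mean-square (RMS) difference of centred log2(CPM + 0.5), with 10841 genes of at least 5 CPM searched. The libraries share groups and depth, so these values only describe. The profile of Per1 was nearest to those of Atp2b1, Kansl3 and Bhlhe41 (RMS 0.29 to 0.33), beside an RMS of 1.13 for Per1 around its own mean. Nr1d1 lay nearest to Hspa5, Snhg12 and Hist2h2be (0.35 to 0.42, own RMS 1.10), and Nfil3 to Hist2h2be, Snhg20 and Tbpl1 (0.40 to 0.42, own RMS 0.95). Per2 was nearest to Il4ra, Foxq1 and Vsig10 (0.28 to 0.31), Per3 to Utrn, Akap9 and Edem3 (0.22 to 0.25), and Dbp to Lamc1, Cdkn1b and Jmjd1c (0.30 to 0.32). Arntl was nearest to Snhg5, Pnrc2 and Ormdl3 (0.15 to 0.19), Clock to Mfsd6, Angel2 and Copa (0.14 to 0.16), Cry1 to Fbxo33, Ap2a2 and Macc1 (0.18 to 0.21), and Bhlhe40 to Osbpl7, Sema4d and Anapc2 (0.25 to 0.26). Bhlhe41 was the only clock gene among these neighbours. Few of the 10841 genes searched are clock genes, so neighbours from outside the clock lists were likely in advance and are not read as a result. Between members, Clock and Per3 were closest (0.50) and Per2 and Nr1d1 farthest apart (1.45). The distance of 0.50 exceeds the RMS of Clock around its own mean (0.38), so it is not read as a shared profile.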

How the data were processed

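RNA was extracted and sequenced in bulk from 18 organoid libraries, per the labels' protocols. The authors deposited 3 tables with whole-number counts per gene for every library, per the file headers. The submitters' processing notes name mm10, DESeq2 1.26.0 and STAR 2.6.0a. The counting program, its strand setting and its annotation: not given in the sources used here. Left unused were 18 columns of normalized values. The 10 members were found by symbol, and the members and lists were chosen with earlier results of these data known.

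Counts were fitted with edgeR 4.0.16 in R 4.3.3: filterByExpr with a minimum count of 10, TMM scaling, the two-sided quasi-likelihood F test and Benjamini-Hochberg adjustment over all genes tested, with a threshold of 0.05. All 10 members passed the filter in every comparison. Each table was fitted alone, except the stage contrast on 12 libraries. The standard error is the log2 fold change over the square root of F. Lines were contrasted in a fit of line 1, line 2 and sgScr. Levels are CPM of the library total, with 0.5 added before logs. GENCODE M21 gave positions and exon lengths, and RefSeq gave promoters. The script was tested on simulated data.

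The text names the members, Tgfbr2, genes whose exons overlap a member's, up to 3 called genes by smallest p for each role of the other clock genes (in the stage contrast only the most negative of these), and the 3 nearest profiles of each member among genes of at least 5 CPM with a name. Some genes that this rule selects are counted but not reported here. Replicates were compared by chi-square over genes. Chi-square per degree of freedom ranged over 1.51 to 2.03 in the PB table and 6.42 to 57.7 in the others, so no libraries were merged. Alternatives were DESeq2 1.42.0, RLE factors, library totals alone, no filter, a threshold of 1 CPM, calls limited to changes of 1 or more on the log2 scale, a replicate block, each library left out, each line alone and lines summed.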

Additional observations from a re-analysis of the deposited data

Results flagged for a closer look

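The effect of the Tgfbr2 guide differed between tumor and premalignant organoids, by a test of the difference itself, for 8 members. Of all 15671 genes tested, 25.0% were called positive and 24.5% negative. The log2 difference, tumor effect minus premalignant effect, was 1.69 for Per2, 1.63 for Nfil3, 1.01 for Bhlhe40 and 0.74 for Cry1, and -0.66 for Clock, -0.83 for Nr1d1, -1.11 for Per3 and -2.04 for Dbp. The tumor guide libraries also differ from the premalignant libraries in muscle, fibroblast and gastric marker sums, and the part of these in the differences was not tested.

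The sgTgfbr2 lines of premalignant organoids differed by a test of line 2 over line 1 for 4 members. Of all 13438 genes tested, 13.2% were called higher in line 2 and 13.1% lower. The log2 fold change was 0.90 for Bhlhe40, 0.82 for Dbp, 0.66 for Per1 and -0.36 for Clock. No library of the premalignant sgTgfbr2 group, the only group of 4 libraries, stood apart from the other 3 for any member by Dixon's test at 95%.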

How the results depend on the processing

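Under PB all 10 members kept direction and call under each of the 12 alternatives that fitted the counts anew. The limit to changes of 1 or more on the log2 scale is not among these 12, and it left 5 members called. Over the 5 comparisons, 631 of 680 member values kept their side of the threshold, 37 lost a call and 11 gained one. In 1 the sign reversed with a call: Bhlhe40 in line 1 alone, at -0.43. Sign changes between fits without a call count as kept. Arntl in tumor organoids, for example, was -0.24 in the main fit and reached 0.04. A minimum absolute log2 fold change of 1 left 2 members and 1539 genes in premalignant organoids, 4 and 5426 in tumor organoids, and 5 and 1598 under PB. Line 2 alone gave 7 members. Leaving out each library in turn gave 2 to 5 members and 4043 to 5997 genes in premalignant organoids, 6 to 7 and 8014 to 8648 in tumor organoids, 10 and 9043 to 9108 under PB, 1 to 5 and 1448 to 5047 between lines, and 5 to 8 and 6861 to 7715 between stages. The lone sgTgfbr2 library of a left-out pair is assumed to vary like the others. With library totals alone the PB calls were 34.9% higher, against 49.7% with TMM, and the median of all genes was -0.15. Deviations of same-numbered libraries from their group means had correlations of -0.15 to 0.13, and of 0.004 to 0.016 in the PB table. In premalignant sgTgfbr2 the deviations also hold the difference between lines. In tumor sgTgfbr2 the deviations of the 2 libraries mirror each other. The check therefore cannot exclude pairing in these 2 comparisons. The fit with a replicate block called 5 members and 4739 genes in premalignant organoids, where Nr1d1 was called (0.72, adjusted p = 0.0316), 6 and 7607 in tumor organoids, where Clock (adjusted p = 0.156) and Nr1d1 (adjusted p = 0.0650) were not, and 10 and 9365 under PB. Between lines, Dbp was not called by DESeq2 (adjusted p = 0.0930). In the stage contrast Nr1d1 lost its call under 6 of 17 alternatives (highest adjusted p = 0.102), Bhlhe40 under 3 (0.0677), Clock under 2 (0.1296) and Cry1 under 1 (0.0985), and of these the library totals alone ended the calls of Clock and Nr1d1. The causes of these changes were not tested. The lowest member value, 2.87 CPM, lies above the 0.200 CPM that 3 counts stand for.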
